A study of Mus musculus with 2 samples.

Results

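Ccl17, Ccl22, Fscn1, Il4i1, Cacnb3, Apol7c and Cd63 are genes that dendritic cells turn up as they mature. These 7 genes were taken by symbol from the 28692 genes listed for single-cell RNA sequencing of mouse adipose tissue, and their UMIs (unique molecular identifiers, which count captured transcript molecules) were summed by cell cluster and library. All 7 were detected. The cells were CD45+ leukocytes that reside in adipose tissue, from wild-type C57BL/6 mice with no other allele or agent named, and the series title places the tissue as visceral. Intravenous labelling had been used to tell them from cells in the blood. One library came from mice on chow and 1 from mice fed a ketogenic diet, each for 1 week. Both libraries are labelled adult, with no age in weeks, and the labels give neither the sex of the mice nor how many were pooled. With 1 library per diet no difference between diets has a replicate check, so no test was made, and diet cannot be told apart from any other difference between the libraries. Intervals are 95% intervals that cover counting error only.

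Dendritic cells sample tissue antigen, and on maturation they stop capturing it, display it with costimulatory molecules and use the chemokine receptor Ccr7 to reach lymph nodes. Conventional dendritic cells comprise type 1 (cDC1), known for presenting antigen to CD8 T cells, and type 2 (cDC2), known for presenting to CD4 T cells, and both can mature. The chemokines Ccl17 and Ccl22 attract cells that carry the receptor Ccr4, among them regulatory T cells. Fascin, encoded by Fscn1, bundles actin in the long processes of mature dendritic cells. Il4i1 encodes a secreted enzyme that oxidises aromatic amino acids, Cacnb3 a β subunit of voltage-gated calcium channels, Apol7c a member of the apolipoprotein L family and Cd63 a tetraspanin of late endosomes and lysosomes.

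In the GRCm38 annotation (GENCODE M21), all 7 identifiers were found as protein-coding genes. Ccl22 (ENSMUSG00000031779, chr8:94745590-94751699, plus strand) and Ccl17 (ENSMUSG00000031780, chr8:94810453-94812036, plus strand) lie 58.754 kb apart. Apol7c (ENSMUSG00000044309, chr15:77524852-77533316, minus strand) and Cacnb3 (ENSMUSG00000003352, chr15:98630840-98644529, plus strand) share a chromosome. Fscn1 (ENSMUSG00000029581) lies at chr5:142960343-142973185, Cd63 (ENSMUSG00000025351) at chr10:128900989-128912822 and Il4i1 (ENSMUSG00000074141) at chr7:44816387-44840809, all on the plus strand. Il4i1 overlaps Nup62 on the same strand and Atf5 and Tbc1d17 on the other. Whether counting used strand is not given in the sources used here, so its counts are less certain.

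The 250 bases before the start sites were searched on both strands for 5 motifs in RefSeq promoters (GRCm38.p6), where the 7 genes have 8 starts. The STAT6 site, TTC and GAA separated by any 4 bases, was found in Ccl17 and Apol7c, and in 5.85% of all 32851 promoters of that length. The interferon-stimulated response element, GAAA repeated after any 2 bases, was found in Apol7c, in 2 overlapping copies, and in 2.98% of all promoters. The NF-κB consensus (7.25% of all promoters), the ETS-IRF composite, GGAA followed after any 2 bases by GAAA (2.3%), and the AP-1 site TGANTCA (6.75%) were found in none of the 8 windows. Both promoters with a match are shown 5′ to 3′ on the strand of the gene because Ccl17 and Apol7c differed in opposite directions between the libraries. Capitals mark the matches. They lie from -154 to -145 in Ccl17 (chr8:94810203-94810452, plus strand), counted back from the start. In Apol7c (chr15:77533316-77533565, minus strand) they lie from -72 to -63 for STAT6 and from -55 to -46 and -49 to -40 for the response element. A match is a description of the letters and not a binding site.
Ccl17: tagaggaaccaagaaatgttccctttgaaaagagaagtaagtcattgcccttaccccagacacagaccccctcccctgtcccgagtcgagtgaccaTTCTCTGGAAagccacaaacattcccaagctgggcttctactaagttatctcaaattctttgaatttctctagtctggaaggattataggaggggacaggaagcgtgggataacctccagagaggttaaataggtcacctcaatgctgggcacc
Apol7c: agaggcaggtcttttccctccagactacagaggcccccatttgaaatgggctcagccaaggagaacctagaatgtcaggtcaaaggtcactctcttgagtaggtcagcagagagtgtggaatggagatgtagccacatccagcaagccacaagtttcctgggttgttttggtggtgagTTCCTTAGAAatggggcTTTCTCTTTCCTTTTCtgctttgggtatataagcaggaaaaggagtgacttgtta

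The chow library held 4545 cells and the ketogenic library 5614, with medians of 3469 and 3461.5 UMIs per cell, and the authors' table placed 10017 of these 10159 cells in 13 clusters. Clusters were named from lists of marker genes that hold none of the 7 genes. The chow and ketogenic libraries shared 41 cell barcodes, of which 0 were in cluster 12. Cluster 12, with 60 chow and 49 ketogenic cells, was mature DC-like, with 9 of its 10 markers raised. Its 10 leading genes were Ccr7, Ccl22, Fscn1, Fabp5, Cd63, Il4i1, Ccl17, Apol7c, Tspan3 and Clu. Because the deposited clusters came from these same cells, levels in cluster 12 against other clusters are a description. Cluster 5 was cDC2-like, with 4 of 10 cDC2 markers raised, although 6 of 7 plasmacytoid dendritic cell markers were also raised there. Cluster 6 was cDC1-like and cluster 3 macrophage-like, with 4 cDC2 markers also raised in cluster 3. Cluster 8, led by Retnla, Fcrls and Lyz1 and containing 362 chow and 47 ketogenic cells, met no name. It had 5 of 10 cDC2 and 3 of 10 macrophage markers raised, but none of these among its 10 leading genes. Raised cDC2 markers were thus not particular to cluster 5.

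Each of the 7 genes had its highest level in cluster 12 in both libraries, but they differed in how much of their RNA lay elsewhere. Levels are summed UMIs scaled to a common total of the same cells (CPM, counts per 1e6), and values are given for chow first. Fscn1 was nearly confined to the cluster, which held 89.9% of its UMIs in the chow library and 93.2% in the ketogenic library. For Apol7c these shares were 90.6% and 92.9%, and for Cacnb3 73.7% and 83.1%. Ccl22 had 70.7% and 63.0% of its UMIs there, and Il4i1 65.2% and 64.3%. Cd63 had 44.0% and 75.5%. Of its UMIs outside the cluster, macrophage-like cluster 3 held the most under chow (387). In the ketogenic library cluster 3 held 39 and cluster 0, named as group 2 innate lymphoid cell (ILC2)-like, held 46. Such shares depend on cell numbers as well as levels. Cluster 3 had 859 chow and 145 ketogenic cells, and cluster 0 had 854 and 1310. By level, cluster 3 came next after cluster 12 for Cd63 in both libraries, at 76.2 and 43.7 CPM, against 7.15 and 10.6 CPM in cluster 0. Ccl17 had the smallest shares, 33.6% and 30.1%, and its next level was in cDC2-like cluster 5. The level of Ccl17 in cluster 12 was 7.23-fold that of cluster 5 in the chow library and 7.34-fold in the ketogenic library. For Fscn1 no fold is given, since the highest levels elsewhere rested on 3 and 1 UMIs.

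**Figure D1:**
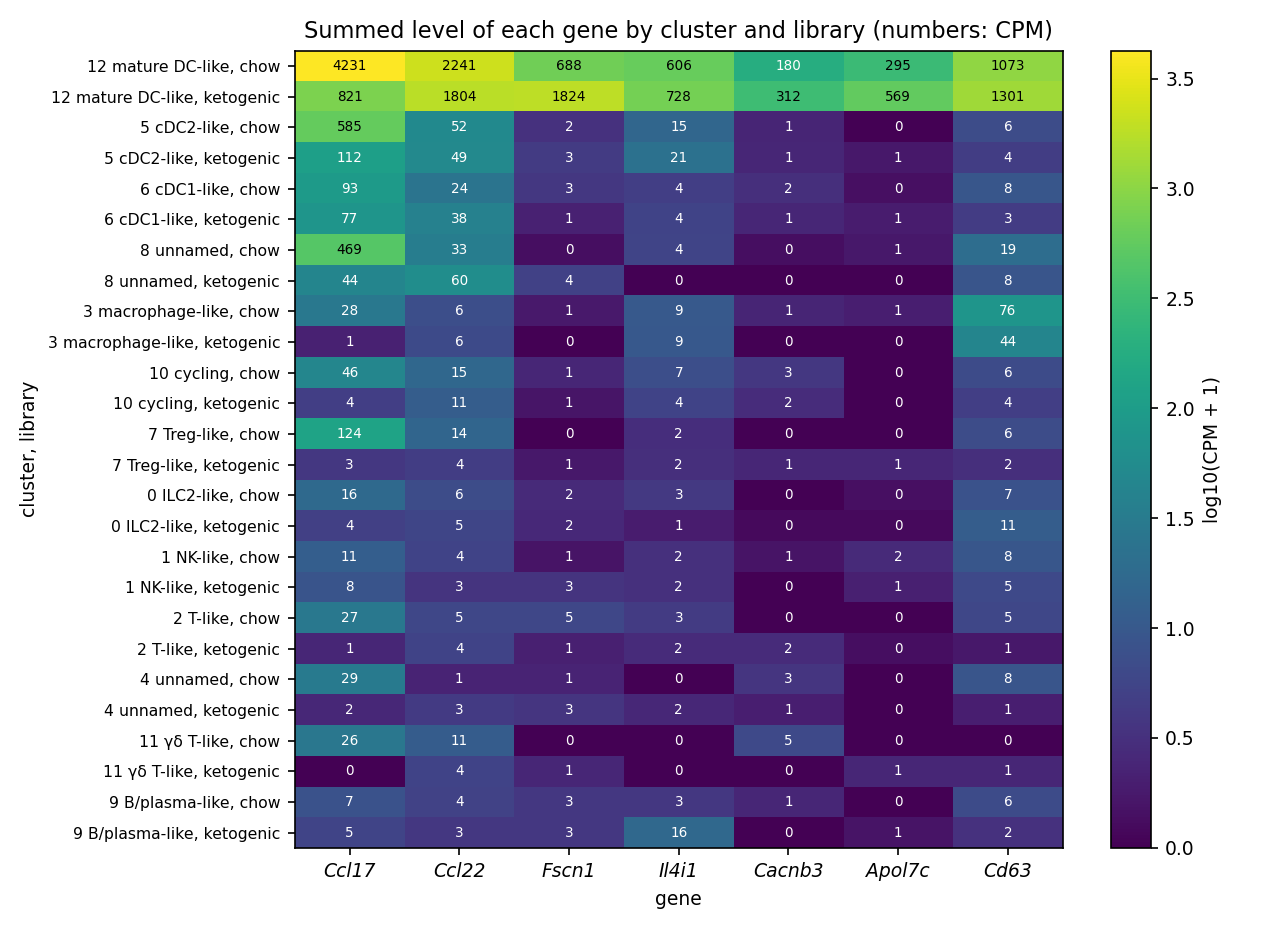
Heat map of the summed level of each of the 7 genes (columns) in every cluster and library (rows), with CPM written in each field and colour on a log10 scale of CPM plus 1. Cluster 12 is highest for all 7 genes, and Ccl17 also stands out in clusters 5 and 8 of the chow library, at 585 and 469 CPM.

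Within cluster 12 the ketogenic library had less Ccl17 and more Fscn1, and 5 genes lay within 2-fold. Ccl17 and Ccl22 were lower, and Fscn1, Il4i1, Cacnb3, Apol7c and Cd63 were higher. Of the 7 genes, 1 was at least 2-fold lower and 1 at least 2-fold higher. Among the 3206 genes with at least 20 UMIs in this cluster, 4.34% were at least 2-fold lower and 5.55% at least 2-fold higher, and the median log2 ratio was 0.04. All 7 genes had a counting interval that left out a ratio of 1, 5 above and 2 below, against 9.79% and 8.64% of all genes. These genes are deeply counted, so their intervals are narrow. Fewer transcripts per cell and fewer producing cells cannot be told apart in a summed level.

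Ccl17 was at 4231 CPM under chow (1648 UMIs, interval 4029 to 4441) and 821 CPM under the ketogenic diet (284 UMIs, 728 to 922). This was 5.15-fold lower (interval 4.54 to 5.87), and 0.343% of the genes counted in the cluster had a lower ratio. A few cells carried most of it. The median chow cell had 2 UMIs and the median ketogenic cell 1, while the richest had 391 and 67. The 5 richest cells held 60.1% and 73.2% of the UMIs. Cells with at least 10 Ccl17 UMIs, a threshold chosen after its values were seen, numbered 18 of 60 chow cells and 6 of 49 ketogenic cells. After every cell was thinned to 1500 UMIs, 51.7% of chow and 32.7% of ketogenic cells of the cluster had a Ccl17 UMI (68.3% and 53.1% unthinned). In natural killer (NK)-like cells, a cell type not known to make it, the thinned shares were 1.80% and 0.377%. Median depths were 6306 and 6808 UMIs in cluster 12, and 2296.5 and 3147 in the NK-like cells.

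Ccl17 was also lower under the ketogenic diet outside cluster 12. In cDC2-like cluster 5 it was at 585 CPM (1291 UMIs) and 112 CPM (309 UMIs), 5.23-fold lower (4.62 to 5.95), where 2.29% of genes were at least 2-fold lower. In unnamed cluster 8 it was at 469 CPM (1366 UMIs) and 43.7 CPM (11 UMIs), 10.7-fold lower (5.99 to 21.6), with 10.4% of genes at least 2-fold lower. The Ccl17 in these clusters also sat in few cells, since 14 chow and 5 ketogenic cells with at least 10 UMIs held 93.0% and 86.4% of it in cluster 5. In cluster 8, 18 such chow cells held 92.5% and 0 of 47 ketogenic cells were of this kind, which allows a share of up to 6.38%, against medians of 7938.5 and 4581 UMIs per cell in the cluster. Without the 5 richest cells of each library the log2 ratio moved from -2.39 to -3.40 in cluster 5 and from -3.36 to -6.31 in cluster 8, where 0 ketogenic UMIs were then left, so that the latter is no bound. Those 18 cells had cDC2 markers at 2960 CPM against 1655 in the other chow cells of cluster 8, and macrophage markers at 5424 against 12545 CPM. In the cycling cells of cluster 10 there were 63 chow and 6 ketogenic UMIs of Ccl17.

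In cDC1-like cluster 6 the difference in Ccl17 was smaller, and whether it differed from that in cluster 5 was not tested. It was at 93.5 CPM (228 UMIs) and 76.7 CPM (267 UMIs), 1.22-fold lower (1.02 to 1.46). A single chow cell held 68.4% of the UMIs, and without the richest cell of each library the log2 ratio became 1.06, higher under the ketogenic diet. Among clusters 5, 6, 8, 10 and 12, it was at least 2-fold lower in 4 of 5, and the share of all genes that much lower was 2.66% in cluster 6 and 5.38% in cluster 10, beside the values above for the others. At low levels, free RNA making up 10% of a cell's UMIs would give 22.8 CPM of Ccl17 in the chow library and 3.62 CPM in the ketogenic library. Chow levels in cluster 3 (27.8 CPM) and in the lymphoid clusters 0, 2 and 4 (16.4, 27.3 and 29.2 CPM) were near that value, and NK-like cells were at 11.1 CPM, so no difference is read from clusters 0, 2, 3 and 4. In macrophage-like cluster 3, where 5.4% of genes were at least 2-fold lower, these were 141 chow UMIs beside 1 ketogenic UMI. With 10% subtracted, the log2 ratio in cluster 0 reversed from -2.05 to 0.92, and in cluster 3 it was -3.19. In the regulatory T-like cells of cluster 7, 56 of the 62 chow UMIs came from 1 cell with 22724 UMIs in all.

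Ccl22 differed less than Ccl17 in cluster 12. Among cells chosen by markers from all clusters, the log2 ratio was -3.28 for Ccl17 and -1.33 for Ccl22. In the cluster Ccl22 was at 2241 CPM under chow (873 UMIs) and 1804 CPM under the ketogenic diet (624 UMIs), 1.24-fold lower (1.12 to 1.38). The richest 5 cells held 57.8% and 64.7% of the UMIs, and without them the log2 ratio moved from -0.31 to -0.56. A Ccl22 UMI was found after thinning in 55.0% and 46.9% of cells (78.3% and 63.3% unthinned), against 0.691% and 0.377% in NK-like cells. In cDC2-like cluster 5, where Ccl17 was lower, Ccl22 was at 52.1 and 49.2 CPM, a difference within counting error. In cDC1-like cluster 6 it was higher under the ketogenic diet, at 24.2 CPM (59 UMIs) and 37.9 CPM (132 UMIs), 1.57-fold (1.14 to 2.17). Over the cells of cluster 12, Spearman's rho between Ccl17 and Ccl22 was 0.68 in 60 chow and 0.63 in 49 ketogenic cells. It was 0.46 and 0.33 between Ccl17 and Il4i1, 0.50 and 0.42 between Ccl22 and Il4i1, 0.58 and 0.51 between Fscn1 and Cd63, and 0.10 and 0.08 between Ccl17 and Fscn1. These cells share a library and differ in depth, so the values are descriptive.

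Ccr4, the receptor for both chemokines, had 0 UMIs in cluster 12 in either library, which allows shares of up to 5% and 6.12% of its cells with a UMI, a limit on detection and not on expression. It and Ccr8 were chosen for mention once their values had been seen. Ccr4 was highest in the regulatory T-like cells of cluster 7, at 30.1 and 40.3 CPM, and was at 15.1 and 18.8 CPM in ILC2-like cluster 0. Ccr8, another chemokine receptor, was highest in the ILC2-like cells, at 81.6 and 117 CPM. Of the 7 genes on the list for this chemokine axis 1 reached 20 UMIs in cluster 12 over both libraries, Dpp4, which encodes a peptidase that trims chemokines. It was at 46.2 and 57.8 CPM, within counting error.

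Fscn1 was the gene with the opposite pattern. In cluster 12 it was at 688 CPM under chow (268 UMIs) and 1824 CPM under the ketogenic diet (631 UMIs), 2.65-fold higher (2.29 to 3.07), and 97.8% of the genes counted in cluster 12 had a lower ratio. Unlike Ccl17 it was spread over the cells. The median chow cell had 4 UMIs and the median ketogenic cell 11, the richest had 15 and 46, and the 5 richest held 23.5% and 28.2% of the UMIs. After thinning, 56.7% of chow and 79.6% of ketogenic cells had a Fscn1 UMI (80.0% and 95.9% unthinned). In NK-like cells these thinned shares were 0.138% and 0.471%. Outside the cluster Fscn1 had 30 chow and 46 ketogenic UMIs in all. Genes for actin and its partners lay closer to a ratio of 1. Of 8 counted genes for actin and its bundling or linking proteins, 0 were at least 2-fold higher and 1 lower, Actn4 (15 and 6 UMIs, 0.45-fold, 0.14 to 1.23), with a median log2 ratio of -0.07. Actb was at 29126 and 25631 CPM, Actg1 at 5726 and 6631 CPM, Lcp1, an actin-bundling plastin, at 226 and 298 CPM, and Actn1 at 92.4 and 119 CPM. Msn, which links actin to the membrane, was at 226 and 147 CPM (0.65-fold, 0.45 to 0.93). The paralogs Fscn2 and Fscn3 had 0 UMIs in cluster 12.

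Il4i1 was at 606 CPM (236 UMIs) and 728 CPM (252 UMIs) in cluster 12, 1.20-fold higher (1.003 to 1.44), with medians of 2.5 and 4 UMIs per cell. Its thinned shares were 48.3% and 57.1% of cells (83.3% and 95.9% unthinned). In macrophage-like cluster 3 it was at 9.25 and 8.96 CPM and in cDC2-like cluster 5 at 14.5 and 21.4 CPM, both within counting error. In B and plasma-like cluster 9 it was at 2.83 CPM (2 UMIs) and 15.9 CPM (28 UMIs), 5.63-fold higher (1.42 to 48.7), in a cluster where 21.4% of genes were at least 2-fold higher. Of the 3 counted genes on the amino acid oxidation list, Slc7a11, a cystine transporter, was at 190 CPM (74 UMIs) and 86.7 CPM (30 UMIs), 0.46-fold (0.29 to 0.71). Kynu (10 and 11 UMIs) and Ahr (16 and 9 UMIs) were within counting error, and the tryptophan dioxygenase gene Ido1 had 0 UMIs in the cluster.

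In cluster 12 Cacnb3 was at 180 CPM (70 UMIs) and 312 CPM (108 UMIs), 1.74-fold higher (1.27 to 2.38). The median chow cell had 1 UMI and the median ketogenic cell 2, and thinned shares were 23.3% and 36.7% (51.7% and 81.6% unthinned). Of 15 other calcium channel and store-operated entry genes, 2 were counted. Cacna1s, a pore-forming subunit best known from skeletal muscle, was at 59.1 and 86.7 CPM, and Orai1, a store-operated channel, at 35.9 and 43.4 CPM, both within counting error. Cacnb2 and Cacnb4 had 0 UMIs in cluster 12.

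In cluster 12 Apol7c was at 295 CPM (115 UMIs) and 569 CPM (197 UMIs), 1.93-fold higher (1.52 to 2.45), just inside 2-fold. It was uneven among cells, since the median cell had 0 UMIs in the chow library and 2 in the ketogenic library while the richest had 23 and 35. Thinned shares were 25% and 40.8% (45% and 67.3% unthinned). Of the 12 other apolipoprotein L genes 0 reached 20 UMIs in the cluster, and together they had 1 and 5.

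Cd63 was at 1073 CPM (418 UMIs) and 1301 CPM (450 UMIs) in cluster 12, 1.21-fold higher (1.06 to 1.39). After thinning it was found in 66.7% of chow and 77.6% of ketogenic cells (85.0% and 98.0% unthinned). In macrophage-like cluster 3 it was lower under the ketogenic diet, at 76.2 CPM (387 UMIs) and 43.7 CPM (39 UMIs), 1.74-fold (1.25 to 2.49). In cDC1-like cluster 6 it was at 8.20 CPM (20 UMIs) and 3.45 CPM (12 UMIs), 2.38-fold lower (1.11 to 5.34). There 2.66% of genes were at least 2-fold lower. These levels were no higher than in NK-like cells, at 8.34 and 5.29 CPM, so no difference is read from cluster 6. Among 8 counted tetraspanins in cluster 12, 3 were at least 2-fold higher and 0 lower, with a median log2 ratio of 0.39. Cd37 (7 and 32 UMIs) was 5.15-fold higher (2.23 to 13.8), Cd81 (21 and 74 UMIs) 3.97-fold (2.42 to 6.78) and Tspan3 (218 and 390 UMIs) 2.01-fold (1.70 to 2.39). Cd9 (106 and 64 UMIs) was 0.68-fold (0.49 to 0.94), and Cd53 (40 and 27 UMIs) was within counting error.

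**Figure D2:**
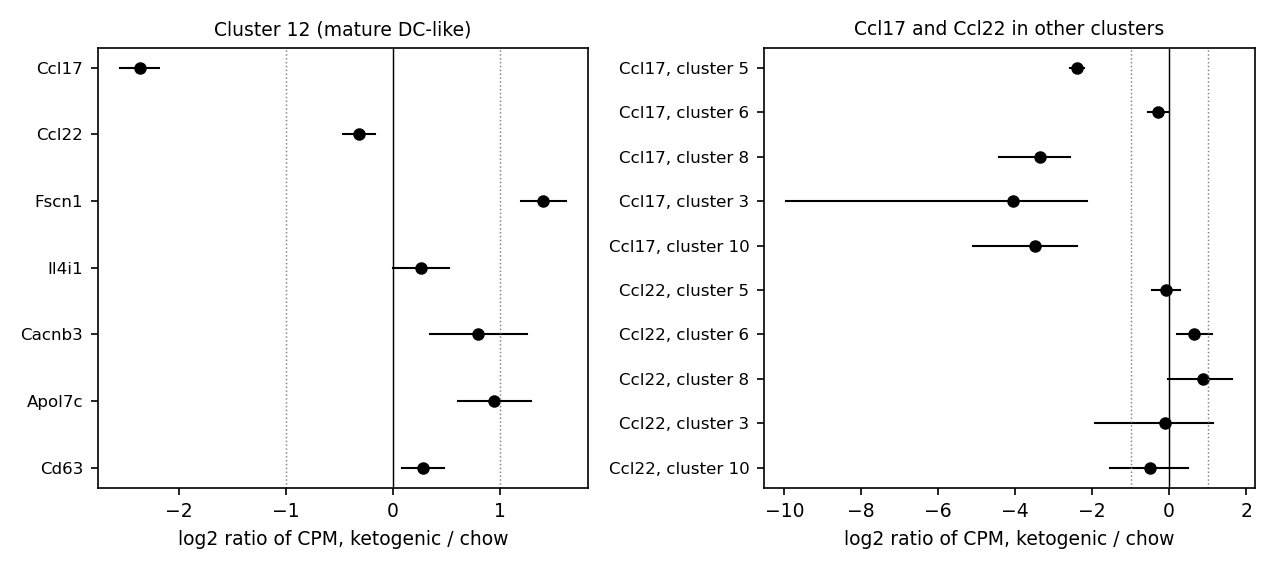
Log2 ratio of CPM, ketogenic over chow, for the 7 genes in cluster 12 (left) and for Ccl17 and Ccl22 in 5 other clusters (right), with 95% counting intervals and dotted lines at 2-fold. Ccl17 lies at -2.36 in cluster 12 and -2.39 in cluster 5, Fscn1 at 1.40 in cluster 12, and the other 5 genes of cluster 12 lie between -0.31 and 0.94.

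The cluster has few cells, and a wider set of cells gave other values. When cells were instead taken from all clusters by at least 3 of 10 mature DC markers (154 chow and 262 ketogenic cells, of which 58 and 49 were in cluster 12, 43 and 95 in clusters 5 and 6 and 53 and 118 elsewhere), Ccl17 was still lower, at a log2 ratio of -3.28, and Fscn1 higher, at 0.29. Ccl22 moved from -0.31 to -1.33, past 2-fold lower. Il4i1, Cacnb3, Apol7c and Cd63 then turned lower, at -0.76, -0.28, -0.22 and -0.89. Most cells of that set lay outside cluster 12, and cluster 12 made up a smaller part of it in the ketogenic library. Its ratios therefore mix the level within mature cells with the share of other cells. The part of each was not tested. Over all clustered cells, with each cluster given the same weight in both libraries, the log2 ratio was -2.34 for Ccl17, -0.18 for Ccl22, 1.25 for Fscn1, 0.19 for Il4i1, 0.48 for Cacnb3, 0.84 for Apol7c and -0.18 for Cd63.

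The 7 genes were detected together in cluster 12, which had itself been formed from the expression of these cells. After thinning, 40 of 60 chow cells of cluster 12 (66.7%, 53.3 to 78.3) and 38 of 49 ketogenic cells (77.6%, 63.4 to 88.2) had at least 3 of the 7 genes. Outside the cluster, 1 of 4398 chow cells and 1 of 5510 ketogenic cells did. Without thinning these counts were 56 and 47 inside and 17 and 6 outside, and the cells outside had medians of 8771 and 9563.5 UMIs. In cluster 12, 8 chow cells and 15 ketogenic cells had all 7 genes without thinning, and the median cell had 5 and 6 of them.

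**Figure D3:**
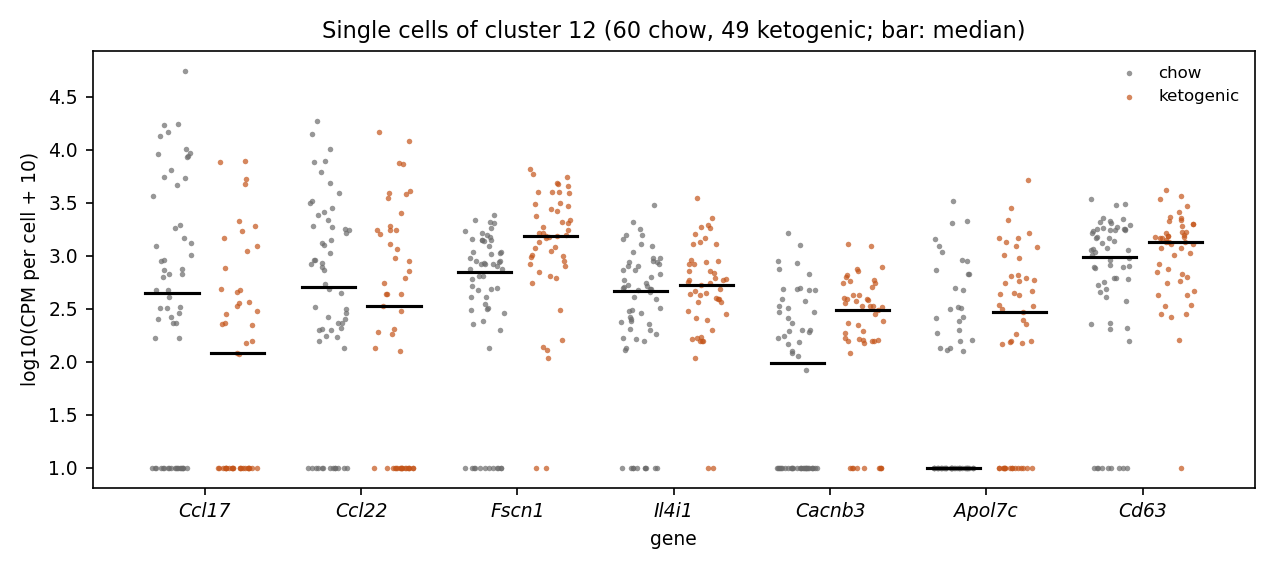
Level of each gene in single cells of cluster 12, as log10 of the cell's CPM plus 10, for 60 chow and 49 ketogenic cells, with 1 point per cell and a bar at the median. Ccl17 reaches its high values in few cells (highest 55985 CPM under chow), whereas Fscn1 is raised across the cells, with medians of 691 and 1532 CPM.

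The cells of cluster 12 differed between the libraries in markers of the conventional dendritic cell types. The cDC2 markers were lower in the ketogenic library, summing to 454 CPM (9 of 10 detected) and 83.8 CPM (6 of 10), where Clec10a, Mgl2 and Itgam were at 0. Clec4a4 was at 0 in both libraries. In cDC2-like cluster 5 they summed to 3299 and 2815 CPM. Of 4 counted cDC2 markers 3 were at least 2-fold lower, with a median log2 ratio of -2.49. Mgl2, a lectin of cDC2 cells, had 47 and 0 UMIs, so that it was at least 13.9-fold lower when the ketogenic cells of the cluster are set to 3 UMIs. Cd209a, another such lectin, had 42 and 3, a ratio of 0.080 (0.016 to 0.25), Sirpa 21 and 6, and Klf4 34 and 15. The cDC1 markers summed to 490 CPM (10 of 10 detected) and 569 CPM (7 of 10, with Xcr1, Itgae and Tlr3 at 0). Among them Irf8, a transcription factor of cDC1 cells, had 41 and 82 UMIs (2.25-fold, 1.53 to 3.36), Naaa 22 and 7 (0.36-fold, 0.13 to 0.87), Batf3 108 and 74, and Ppt1 9 and 12. Macrophage markers were also lower, at 637 CPM (8 of 10) and 116 CPM (4 of 10), most of it from Lyz2 with 196 and 25 UMIs. The defining macrophage genes C1qb, C1qc, Adgre1 and Mrc1 were at 0 in the ketogenic cells, and Fcgr1 and Mertk were at 0 in both libraries. Markers of some other classes were higher in the ketogenic cells and those of others lower. Among the higher, cycling markers summed to 134 and 399 CPM (52 and 138 UMIs, Hmgb2 36 and 75 of them), and gamma-delta T markers to 1 and 23 UMIs, 18 of the latter from Trdc. The overlapping CD4 and CD8 T lists were at 100 and 208 CPM and at 113 and 225 CPM, the regulatory T list at 205 and 312 CPM with Foxp3 at 0 in both libraries, and the ILC2 list at 141 and 225 CPM. Among the lower, plasmacytoid DC markers were at 270 and 145 CPM, plasma cell markers at 200 and 110 CPM and monocyte markers at 262 and 165 CPM. Endothelial markers had 30 and 9 UMIs and neutrophil markers 11 and 1. The part of these markers in the differences of the 7 genes was not tested.

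Cells of cluster 12 were then divided by which of the 2 marker lists had more UMIs in the cell, a step added after the data were seen. The cDC1 list led in 35 chow cells (58.3%) and 43 ketogenic cells (87.8%), the cDC2 list in 16 (26.7%) and 3 (6.12%), and both were equal in 9 and 3. Many cells held few UMIs of either list, so a lead of 1 UMI could place a cell, and the equal cells include some with 0 of both. The division is therefore coarse. Among cells where the cDC1 list led, Ccl17 was at 2986 CPM (700 UMIs) and 920 CPM (274 UMIs), 3.24-fold lower (2.82 to 3.74), against 5.15-fold over the whole cluster. Ccl22 in these cells had a ratio of 0.947 (0.830 to 1.08), within counting error. Fscn1 was 2.43-fold higher (2.04 to 2.90), Il4i1 1.53-fold (1.21 to 1.93) and Cacnb3 2.01-fold (1.37 to 3.01). Apol7c at 1.24-fold (0.946 to 1.64) and Cd63 at 1.09-fold (0.929 to 1.27) were within counting error. The 16 chow cells where the cDC2 list led had Ccl17 at 7430 CPM (784 UMIs) and Ccl22 at 3838 CPM (405 UMIs), while Apol7c had 8 UMIs. A single cell held 391 of those Ccl17 UMIs. Without the richest cell of each kind, Ccl17 in chow cells was at 3988 CPM where cDC2 led, 2138 CPM where cDC1 led and 1143 CPM where they were equal, and at 716 CPM in ketogenic cells where cDC1 led. The 3 ketogenic cells of that kind had 2 Ccl17 UMIs, and no level rests on so few cells. When Batf3 and Irf8 were left out of the cDC1 list, the cDC1 list led in 9 chow cells (15%) and 16 ketogenic cells (32.7%), the cDC2 list in 34 (56.7%) and 10 (20.4%), and 17 and 23 cells were equal, so the division depends on these 2 genes. Ccl17 was lower under the ketogenic diet in each of the 3 kinds of cell, 4.08-fold where cDC1 led, 8.66-fold where cDC2 led and 2.11-fold where they were equal. Ccl22 was 2.84-fold lower (2.25 to 3.62) where cDC2 led and 4.40-fold higher (3.20 to 6.18) where they were equal, and within counting error where cDC1 led. How far the mix of cDC1 and cDC2 cells enters the differences of any of the 7 genes was not tested.

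**Figure D4:**
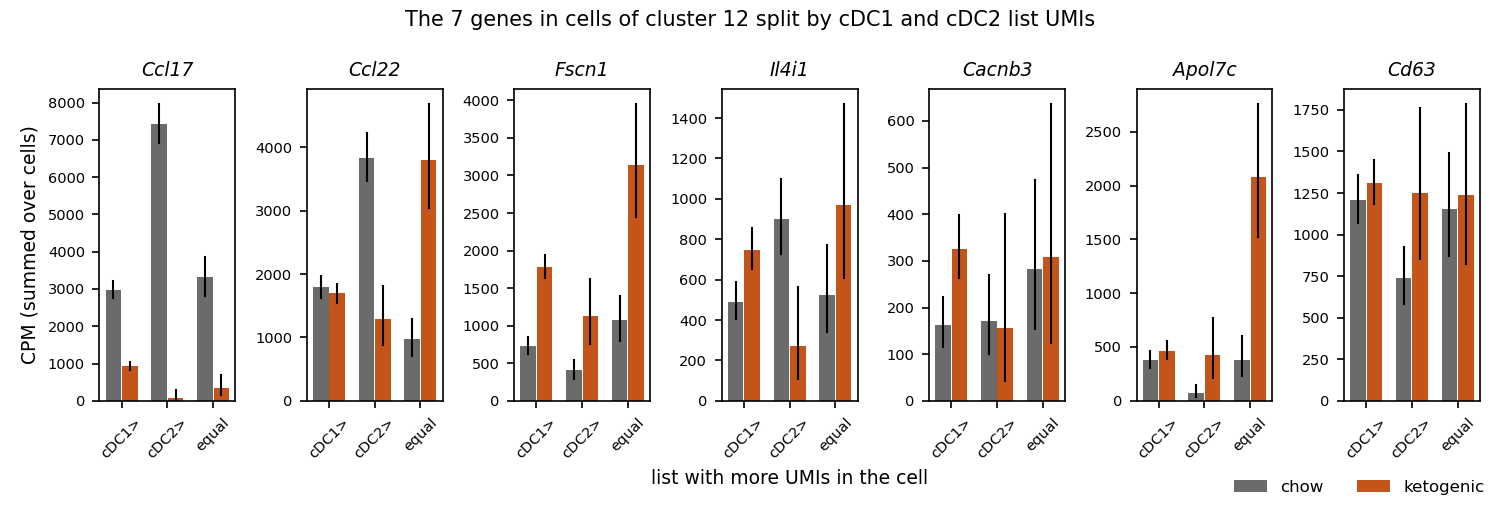
CPM of the 7 genes in cells of cluster 12 where the cDC1 list had more UMIs (35 chow, 43 ketogenic cells), where the cDC2 list had more (16 and 3 cells) and where they were equal (9 and 3 cells), with 95% Poisson intervals. Where the cDC1 list led, Ccl17 is at 2986 CPM in the chow library and 920 CPM in the ketogenic library, and the ketogenic bars of the other kinds rest on 3 cells each.

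Most other maturation genes lay within 2-fold between the libraries, as did most genes counted in cluster 12. Of 36 maturation genes, none of them among the 7, 33 were counted in cluster 12, with a median log2 ratio of 0.28. At least 2-fold higher were 2 (6.06%) and lower 1 (3.03%), near the 5.55% and 4.34% of all genes counted there. The interval lay above a ratio of 1 for 12 and below it for 1, against 9.79% and 8.64% of all genes in the cluster. Intervals are narrower for genes with more UMIs. At least 2-fold higher were Il12b, the shared subunit of interleukins 12 and 23 (21 and 87 UMIs, 4.66-fold, 2.87 to 7.91), and H2-M2, a non-classical major histocompatibility gene (39 and 114 UMIs, 3.29-fold, 2.27 to 4.86). Lower was Nfkb1, an NF-κB subunit (77 and 26 UMIs, 0.38-fold, 0.23 to 0.60), while Aldh1a2, a retinoic acid-forming enzyme, had 78 and 55 UMIs, within counting error. Ccl5, a chemokine, was at 5738 and 10889 CPM (1.90-fold, 1.8 to 2.0) and Ccr7 at 2829 and 3489 CPM (1.23-fold, 1.14 to 1.34).

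Across the 26 pairs of cluster and library, the pattern of Fscn1 was most like that of Apol7c (Pearson's r 0.998 on log2 of CPM plus 20), then Mreg and Stap2, among 11379 genes. Outside cluster 12 these 4 genes reached at most 4.83, 1.67, 2.83 and 3.97 CPM. With 20 CPM added they are nearly flat there, so r rests on the cluster 12 points and is high for any gene confined to that cluster. Stap2 had 50 UMIs in all, the minimum used, 16 chow and 26 ketogenic ones in cluster 12. Which genes came nearest depended on the measure, since of the 21 named here for the 7 genes 1 was named again with Spearman's rho, 11 with at least 200 UMIs and 13 with CPM plus 5. Apol7c was most like Fscn1, Nudt17 and Clu, and Cacnb3 most like Apol7c, Clu and Mreg. For Il4i1 the nearest were Col27a1 (0.99), Zmynd15 and Mreg, for Cd63 Papss2 (0.98), Vcam1 and Zmynd15, and for Ccl22 Adam23 (0.97), Scn2b and Fxyd2. Ccl17 had the least close neighbours, Tmtc2 (0.90), Pvrl1 (0.87) and Gm38399 (0.87). Among the 7 genes the lowest r was 0.70, between Ccl17 and Fscn1. These points share libraries, depth and the cells from which the clusters were drawn, so the values are descriptive.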

How the data were processed

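Per the labels, the cells went through a 10x Genomics library protocol. Values in the deposited matrices are raw counts of UMIs, not normalised, and the authors' deposited table gives each cell's cluster number at a resolution of 0.5. Cell Ranger, Seurat and mm10 are named in the submitters' processing notes, without versions. The filter on cells and whether doublets had been removed are not given in the sources used here. No doublet caller was run, and leaving out the deepest 5% of cells was an alternative.

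The 7 genes, the gene lists, the markers and the tests were chosen with earlier results of these data known. UMIs were summed per cluster and library with Python 3.11.15, numpy 2.4.6, scipy 1.17.1 and pandas 2.3.3. Intervals are exact Poisson for levels, exact conditional for ratios and Clopper-Pearson for shares, and for a count of 0 the limit given is 3 counts. Log2 ratios had 0.5 added to each count, and genes needed 20 UMIs in a cluster over both libraries to be counted. A marker was raised when CPM plus 20 was at least 2-fold that of all other cells, and a name needed 3 raised markers with 1 among the 10 leading genes. Thinned shares are exact hypergeometric expectations at 1500 UMIs, which left out 0 cells of the clusters given, rounded to whole cells, and counts of 3 genes treat genes as independent after thinning. Outside the 7, the text names per list the 2 highest and 2 lowest ratios and the 2 highest levels, and per gene the 3 most similar genes. The ratio procedure was tested on simulated data. Tables hold 0 per-sample columns left unused.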

Additional observations from a re-analysis of the deposited data

Results flagged for a closer look

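Ccl22 moved in opposite directions in clusters 6 and 12. Its log2 ratio, ketogenic over chow, was 0.64 in cDC1-like cluster 6 and -0.31 in mature DC-like cluster 12, a difference of 0.954. Cd63 was higher under the ketogenic diet in cluster 12, at a log2 ratio of 0.28, and lower in macrophage-like cluster 3, at -0.79, a difference of 1.06. Each diet had 1 library, and these differences between clusters were not tested.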

How the results depend on the processing

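No paired analysis was possible because each diet had 1 library. For cluster 12 log2 ratios, with cells taken by markers from all clusters the values were -3.28 for Ccl17, -1.33 for Ccl22, 0.29 for Fscn1, -0.76 for Il4i1, -0.28 for Cacnb3, -0.22 for Apol7c and -0.89 for Cd63. By construction that set also holds cells from outside cluster 12, 43 chow and 95 ketogenic ones of clusters 5 and 6 and 53 and 118 of other clusters. Using only cells with more cDC1 than cDC2 UMIs gave -1.70 for Ccl17, -0.079 for Ccl22, 0.61 for Il4i1 and 0.31 for Apol7c. Without the 5 richest cells Ccl17 was -2.94 and Ccl22 -0.56, without the richest cell Ccl22 was -0.52, and as a mean over cells Ccl17 was -2.08. These 2 settings on cDC1 cells and on the 5 richest cells, the lists without Batf3 and Irf8 (cDC2 led in 56.7% and 20.4% of cells) and leaving out the richest Ccl17 cell of each kind were chosen after seeing the data. Over all cells without weights the log2 ratios were -2.66 for Ccl17, -0.60 for Ccl22, 0.91 for Fscn1, -0.16 for Il4i1, 0.46 for Apol7c and -0.95 for Cd63. The share of cluster 12 cells with at least 3 of the genes was 93.3% and 95.9% without thinning, 85.0% and 89.8% for at least 2 genes, and 61.2% of ketogenic cells without Cd63. Outside the cluster these were 0.387% and 0.109%, then 0.477% and 0.181%, and 0 of either library without Cd63 or at 1000 UMIs. At 10 UMIs per gene 4 maturation genes were at least 2-fold higher. Of the 21 similar genes, 13 were named again with CPM plus 5, 11 with at least 200 UMIs and 1 with Spearman's rho. For Ccl17 in cluster 6 the log2 ratio of -0.29 became 0.04 without the deepest cells and 0.05 with 10% free RNA subtracted, and Ccl22 in cluster 8 went from 0.89 to -0.37 without its richest cell. Ccl17 in cluster 0 reversed from -2.05 to 0.92 with 10% free RNA subtracted. The causes were not tested. Besides these, 78 main and 232 single values stayed within counting error, or within 1.5 times for counts, and 57 single values moved further. The 109 cells of cluster 12 limit every value there.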

Other observations

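Some genes looked up beside the 7 were also found outside cluster 12. Cacna1s was at 142 CPM in B and plasma-like cluster 9 of the chow library, against 59.1 CPM in cluster 12, and at 72.3 against 86.7 CPM in the ketogenic library. Slc7a11 was at 54.3 and 94.1 CPM in macrophage-like cluster 3, against 190 and 86.7 CPM in cluster 12. Il12b and H2-M2 were at or below 3.78 CPM in every cluster but 12 in both libraries.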
